A study of Harpegnathos saltator with 18 samples.

Results

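The non-visual brain of Harpegnathos saltator workers was set against the worker antenna, the organ of smell on the head, in 6 of the 18 libraries of the series, with 3 libraries per tissue. Harpegnathos is an ant in which workers can turn into egg-laying gamergates, and both tissues here came from workers. The libraries were chosen by their labels. The other 12 libraries (optic lobe, retina and fat body of workers, ovary of gamergates) served to show where the genes of this comparison stand elsewhere. They also entered the recovery of read numbers and an alternative fit, but not the main test. Polyadenylated RNA was sequenced in libraries without strand, so reads of a gene and of an overlapping antisense gene cannot be told apart, and the sources do not state how reads common to near-identical copies of a gene were counted. Age, strain, the number of animals per library and the brain parts that make up the non-visual brain are not given either. Replicates are therefore only separate libraries, and p-values measure the spread between them, which may be technical.

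In insects the antenna carries sensilla, small hairs that house the dendrites and cell bodies of smell and taste neurons together with supporting cells that secrete the fluid around them. The axons of the smell neurons run to the antennal lobe of the central brain, and from there second-order neurons reach the mushroom bodies, which serve learning. The comparison thus asks how the transcripts of a central neural tissue differ from those of a peripheral organ in which sensory neurons lie among cuticle-forming and supporting cells. Each feature of the deposited table is called a gene below, whether its identifier is of the HSALG kind or of the XLOC kind. The table pairs no identifier with a gene name and 0 of its 20755 identifiers matched the reference table of gene names, so the tissues could not be checked against named marker genes and no family, such as the odorant receptors, could be described.

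Antenna libraries were shallower than those of the non-visual brain. Reads in gene models, recovered from the steps of the RPKM values, numbered 4.05, 4.70 and 5.28 M (mega) in non-visual brain replicates 1, 2 and 3, against 0.972, 0.566 and 1.16 M in antenna replicates 1, 2 and 3. At least 1 RPKM (reads per kilobase of gene model, scaled to the library total) was reached by 9535, 11374 and 11476 genes in the non-visual brain and by 6749, 6585 and 8279 in the antenna. The groups did not overlap in either measure. An exact two-sided permutation test gave p = 0.1 for each, the smallest that 3 libraries against 3 allow (0.12 after Benjamini-Hochberg adjustment over 6 library measures). The 10 highest genes took 9.32, 5.96 and 5.48% of all RPKM in the non-visual brain and 20.8, 16.2 and 21.7% in the antenna. For a gene of 1000 bases, 3 reads were worth 0.197 to 0.265 RPKM in non-visual brain libraries and 0.634 to 1.27 RPKM in antenna libraries, as a floor that covers counting error only.

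Zeros in the antenna went beyond this floor. With every library thinned to 566429 reads, genes were taken for which the other 2 libraries of the tissue predicted 20 reads or more. Of these, 0.883, 0 and 0.0411% had no read in non-visual brain replicates 1, 2 and 3, against 15.3, 15.4 and 7.60% in antenna replicates 1, 2 and 3. A gene without a read in 1 antenna library could thus be well represented in the next. The median SD of log2(RPKM + 1) over genes was 0.48 within the non-visual brain and 1.22 within the antenna, and 78.5% of genes varied more in the antenna.

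**Figure D1:**
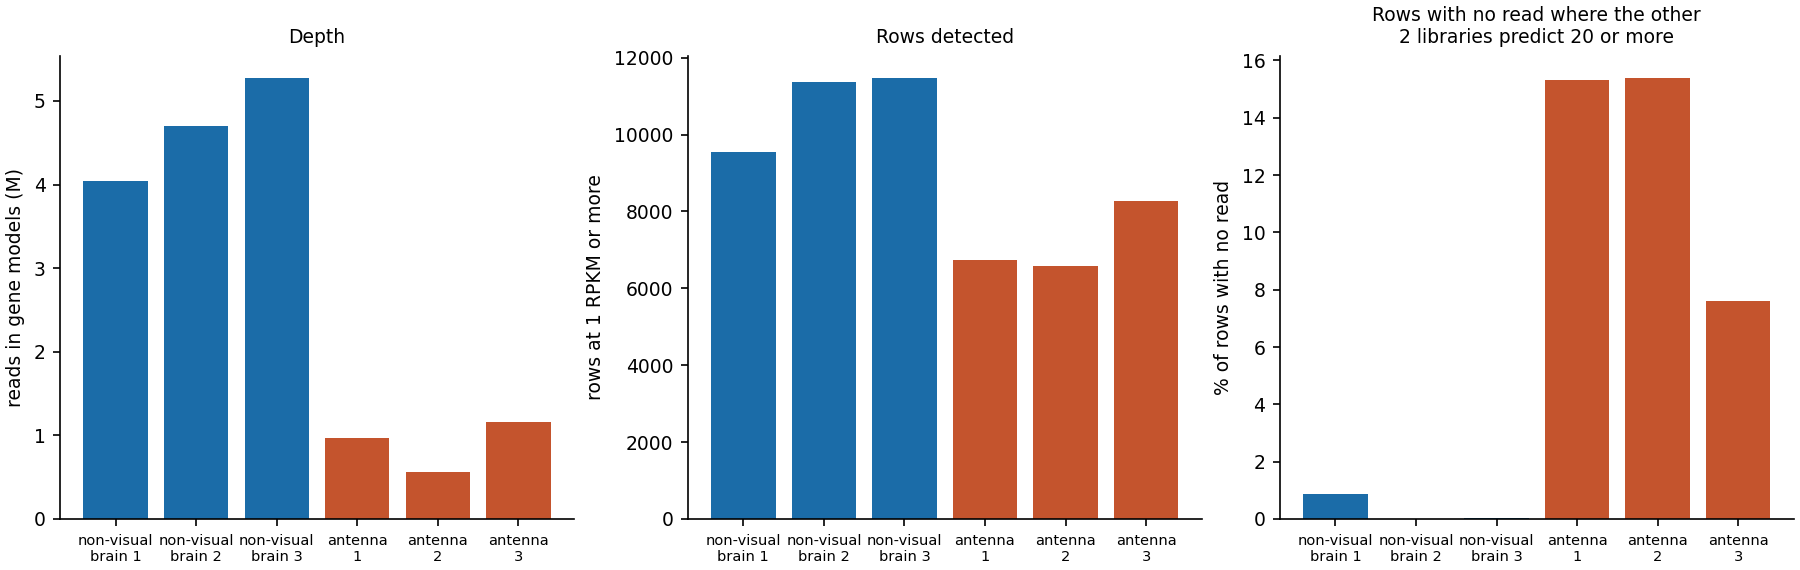
Reads in gene models, genes at 1 RPKM or more, and the percent of genes with no read where the other 2 libraries of the tissue predict at least 20 at equal depth, 1 bar per library. Non-visual brain libraries (blue) are deeper and hold more genes than antenna libraries (orange), and such missing genes make up under 1% in each non-visual brain library and 7.60 to 15.4% in the antenna libraries.

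Transcripts of 1128 genes were higher in the non-visual brain than in the antenna, and those of 176 were lower. On the log2(RPKM + 1) scale, 914 of the higher genes were at least 4-fold, 118 at least 16-fold and 7 at least 64-fold higher. Their median log2 difference was 2.68, or 2.31 with genes that had no antenna read set to the bound given by 3 reads. On this scale, a gene without an antenna read cannot differ by more than its non-visual brain level allows, and 809 of the 1128 were such genes. Lower genes were fewer, with 169 at least 4-fold, 58 at least 16-fold and 18 at least 64-fold lower (median log2 difference -3.38). Sizes in the opposite directions are therefore not directly comparable. The higher genes together took 14.8, 12.6 and 13.7% of the RPKM in the non-visual brain libraries and 1.24, 1.39 and 2.04% in the antenna libraries. The lower genes took 0.791, 0.882 and 0.768% in the non-visual brain and 28.3, 21.7 and 7.53% in antenna replicates 1, 2 and 3, so their share was lowest in antenna replicate 3. These shares describe the genes that were called and are no further test. In whole tissues, fewer cells of a type and less RNA per cell cannot be told apart.

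The test was limma on log2(RPKM + 1) over the 10202 genes that reached 1 RPKM in 3 or more of the 6 libraries, with calls at an adjusted p under 0.05 and a log2 difference of at least 1 in size. Called genes were 11.1% of those tested in the higher direction and 1.73% in the lower one. The 3 non-visual brain libraries lay above the 3 antenna libraries without overlap in 29% of genes and below them in 4.15%, the called genes included. The median gene lay 1.04 higher in the non-visual brain on the log2 scale, with 0.16 to 1.56 for single pairs of libraries, and 0.55 over the 3825 genes at 1 RPKM or more in all 6 libraries. Of the 1128 higher genes, 894 lay at least 1 above that median, while a lower call lies more than 1 below it by definition. Higher genes made up 86.5% of the calls as deposited and 41.5% after quantile normalization (159 higher and 224 lower). When every library was given an equal RPKM total, the share of higher genes was 85.9% (1093 beside 180 lower ones). Trimmed-mean factors gave 79.2% (881 beside 232). Among these scalings, the surplus of higher genes was thus lost only under quantile normalization. Of the 176 lower genes, 161 were again called lower after quantile normalization. Both counts also moved with the genes entered and with the source of the spread. They were 96 higher and 45 lower when all 15488 genes above 0 in at least 1 library were tested. With 1 spread shared by all 18 libraries, they were 2679 and 329. Without non-visual brain replicate 1, 2 or 3, limma called 84, 67 and 64 genes lower, and without antenna replicate 3 it called 2819 higher and 280 lower.

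**Figure D2:**
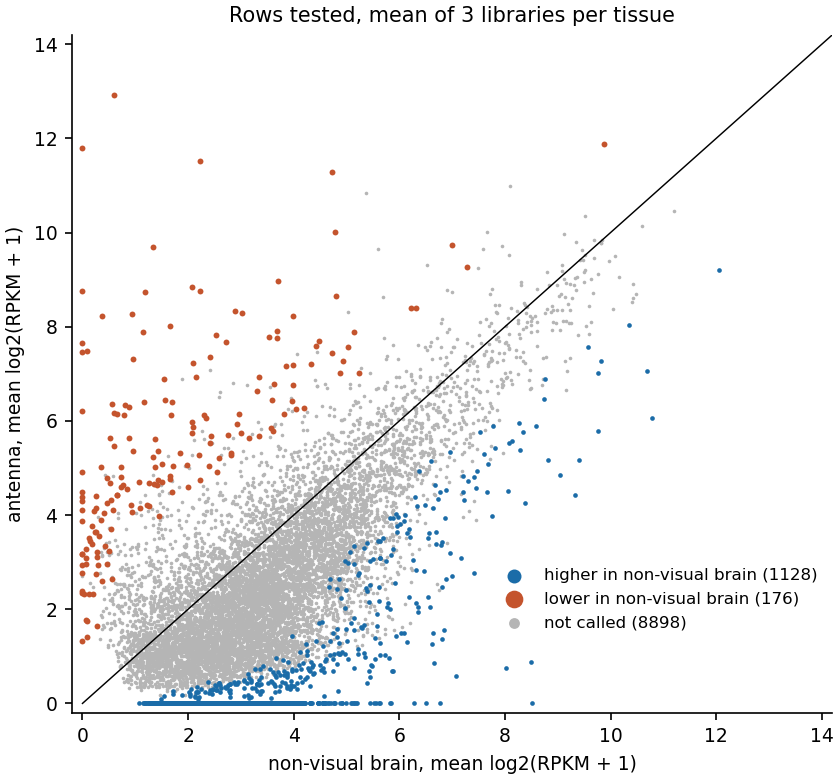
Mean log2(RPKM + 1) of the 3 non-visual brain libraries (x axis) and the 3 antenna libraries (y axis) for each of the 10202 genes tested, with the line of equal levels. Most higher genes (blue) lie on the floor of the plot, without a read in any antenna library, and the lower genes (orange) reach farther from the line.

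Most of the higher genes were genes that the antenna libraries did not show at all. Of the 1128, 809 had no read in any antenna library. Such a gene entered the test only by reaching 1 RPKM in all 3 non-visual brain libraries, so its call was nearly fixed by the filter on low values, and 809 of the 824 genes so selected were called. Among the 9378 tested genes with at least 1 antenna read, 319 were called higher, which is 3.40%. Of these 319, 117 were read in every antenna library, 48 had no read in 1 and 154 had no read in 2. A gene at 0 throughout has no spread in the antenna, so its own spread within tissues comes from the non-visual brain alone. The 809 genes were low in the non-visual brain, with a median of 5.49 RPKM, against 29.2 RPKM for the other 319. Those 319 had a median of 1.78 RPKM in the antenna and a median log2 difference of 3.03.

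The levels and bounds of the 809 genes describe a set picked for its level in the non-visual brain and support nothing further. At that level, 769 of the 809 genes would have given at least 10 reads over the 3 antenna libraries (median 36.03). Against 3 reads over those libraries, the median gene of the 809 was at least 12.0-fold higher in the non-visual brain. Such bounds do not cover the missing genes of the antenna libraries described above, whose part in these calls was not tested. With all 6 libraries thinned to the same number of reads, limma called 894 genes higher and 152 lower, of which 825 and 142 were among the calls at full depth. Over all genes with recovered reads, 1212 were read in every non-visual brain library and in no antenna library, and 26 the other way round. After thinning these numbers were 897 and 46.

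The lower genes rested on reads in every library of the antenna. None of the 176 lacked a read in any antenna library, 157 had at least 10 reads in each, and the median gene had 474 reads over the 3 libraries. Among all 10202 genes tested, 4475 were read in every antenna library. Likewise, all 1128 higher genes were read in every non-visual brain library, so such reads go with a call in either direction. In the non-visual brain 18 of the 176 lower genes had no read in any library. All genes tested held 20 such genes, which had entered only by reaching 1 RPKM in all 3 antenna libraries.

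Each library was also left out of the fit and then read against the genes called without it. Only genes that passed the filter on low values in the other 5 libraries were read, so their own passing and difference had not used its value. The genes fitted together had still been filtered on all 6 libraries. The library left out was also set against the same libraries of the other tissue that had made the call. The shares below favour called genes for that reason and are no independent test. Few of the higher calls could be read against a left-out non-visual brain library. Of the 937, 774 and 774 genes called higher without non-visual brain replicate 1, 2 or 3, 78, 36 and 37 remained. The library left out lay above all 3 antenna libraries in 77, 36 and 37 of them, against 33.2, 37.9 and 46.1% of all genes that passed in the other 5. For the other higher calls the filter itself required at least 1 RPKM in the library left out. Of the 937, 758 and 2810 higher calls that could be read for antenna replicates 1, 2 and 3, the library left out lay below all non-visual brain libraries in 83.8, 85.0 and 63.3%, against 67.8, 64.8 and 48.1% of all such genes.

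In the lower direction all 84, 67 and 64 calls made without non-visual brain replicates 1, 2 and 3 could be read, and the library left out lay below all antenna libraries in 83, 67 and 64 of them, against 10.3, 7.29 and 7.8% of all such genes. For antenna replicates 1, 2 and 3, 98 of 142, 75 of 120 and 222 of 280 calls could be read. The antenna library left out lay above all non-visual brain libraries in 82.7, 84 and 74.8% of these, against 13.3, 15.1 and 24.7% of all such genes. Among antenna libraries the share was lowest for replicate 3 in both directions.

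**Figure D3:**
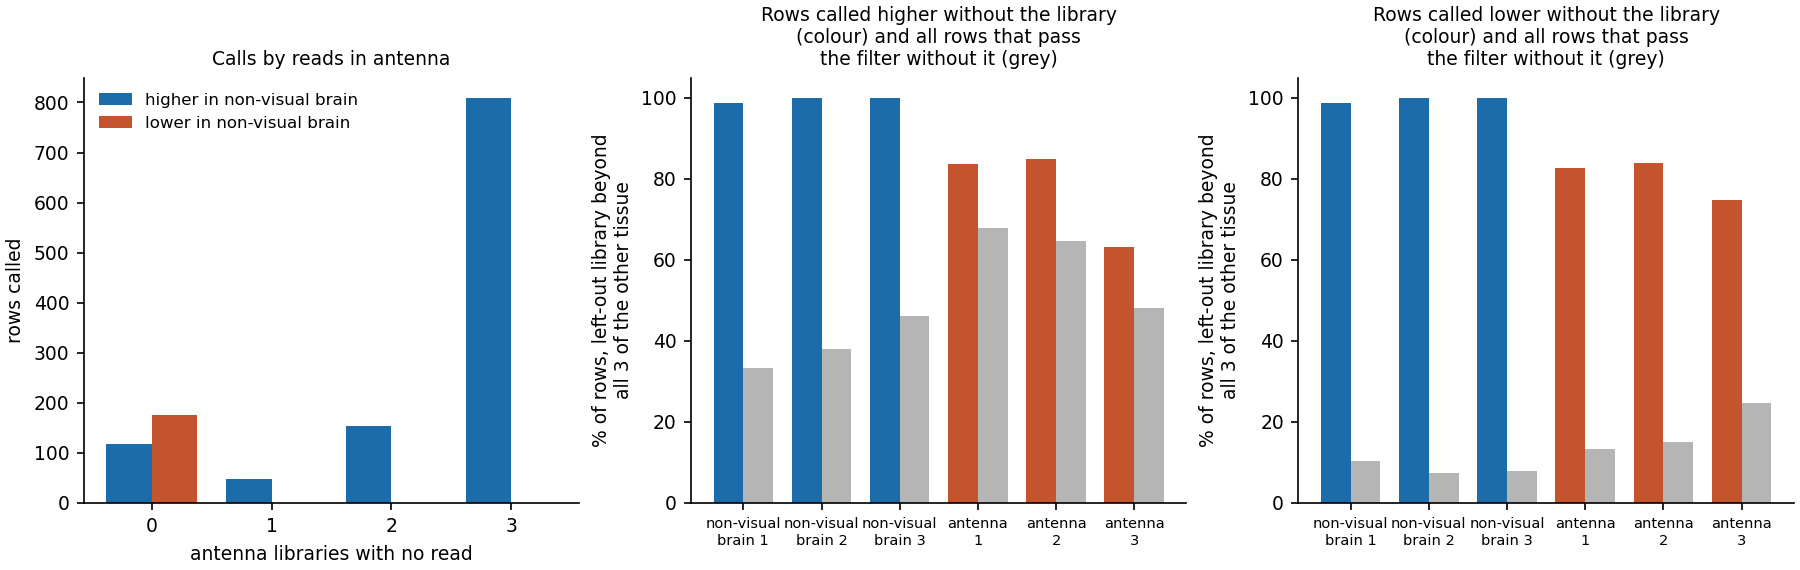
Left, the number of genes called higher (blue) or lower (orange) by how many antenna libraries had no read. Middle and right, for each library left out of the fit, the percent of genes called higher or lower without it in which that library lies beyond all 3 libraries of the other tissue (blue for non-visual brain, orange for antenna), beside the same percent over all genes (grey), among genes that pass the filter on low values in the other 5 libraries. Of the higher genes 809 have no read in any antenna library, and all 176 lower genes are read in each of them.

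Antenna replicate 3 stood apart from the other antenna libraries. Pearson correlations across the tested genes, which are not independent replicates, were 0.613 between antenna replicates 1 and 2. Between each of them and replicate 3 they were 0.52 and 0.532. With the non-visual brain libraries, replicate 3 correlated at 0.519 to 0.584. For antenna replicates 1 and 2 these values were 0.498 to 0.545 and 0.4925 to 0.5363, so the ranges overlap. The median gene was higher in the mean of the non-visual brain by 1.39, 1.29 and 0.37 on the log2 scale when set against antenna replicates 1, 2 and 3 singly. The 2819 genes called higher without it were 27.6% of those tested, and the 280 called lower were 2.74%. Of the 1128 higher and 176 lower genes, 1077 and 170 were called again in the same direction. With reads thinned as well, 2498 were higher and 206 lower. Genes read in every non-visual brain library and in neither antenna replicate 1 nor 2 numbered 2365.

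Lists of genes restricted to another tissue were taken from the 12 libraries outside the comparison, as genes at 10 RPKM or more in each library of a tissue and at least 30 times the mean of each of the other tissues among those 4. The 82 genes of the optic lobe list stood at a median of 31.3, 38.5 and 43.7% of their optic lobe level in non-visual brain replicates 1, 2 and 3, against 6.16, 8.90 and 19.5% in antenna replicates 1, 2 and 3. Of the 82, 6, 1 and 0 had no read in non-visual brain replicates 1, 2 and 3, against 26, 23 and 12 in antenna replicates 1, 2 and 3. The 52 genes of the retina list stood at a median of 0.0169, 0.247 and 1.02% of their retina level in the non-visual brain and 0.307, 2.61 and 20.02% in the antenna. The antenna did not set the lists, and the highest retina list gene reached 842, 2704 and 553% of its retina level in antenna replicates 1, 2 and 3. In non-visual brain replicates 1, 2 and 3 the highest reached 48.3, 39.8 and 45.2%. The 17 genes of the fat body list stood at 0, 0.0804 and 0.999% in the non-visual brain and at 0, 1.01 and 6.43% in the antenna. In both lists the antenna library with the highest median was replicate 3. The 144 genes of the ovary list had a median of 0% in 5 of the libraries and 0.0143% in non-visual brain replicate 3. Of the 79 genes of the optic lobe list that were tested, 14 (17.7%) were called higher in the non-visual brain, beside 11.1% of all genes, and none lower, with a median log2 difference of 1.77 beside 1.04 for all genes. The retina, fat body and ovary lists held 35, 13 and 31 tested genes, of which 11, 1 and 5 were called lower (31.4, 7.69 and 16.1%, beside 1.73% of all genes) and none higher. The median log2 differences of those tested genes were -2.75, -2.08 and -1.29. Of the whole lists of 52, 17 and 144 genes, 21.2, 5.88 and 3.47% were called lower. A list gene under 1 RPKM throughout the non-visual brain was tested only if all 3 antenna libraries reached 1 RPKM, which favours a lower call. The shares and medians of tested genes are thus partly set by the filter.

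HSALG005445.2 had the largest difference among higher genes. It stood at 772, 243 and 252 RPKM in the non-visual brain libraries and was listed at 0 in all antenna libraries. It had 6760 reads in the non-visual brain, and at that level the antenna libraries would have held 1785 reads. With a floor of 3 reads for the 3 antenna libraries together, it was at least 595-fold higher in the non-visual brain (limma, adjusted p = 0.00398). That floor covers counting error of independent reads only, and not the missing genes of the antenna libraries described above. Non-visual brain replicate 1 was the highest library by far, and without it the bound was 349-fold. Leaving out antenna replicate 1, which has the largest recovered total among antenna libraries, gave 317-fold. Outside the comparison it stayed low, at 0 to 6.12 RPKM in the optic lobe, 2.04 to 8.26 in the retina, 0 to 0.163 in the fat body and 0.319 to 0.816 in the ovary, so that no library of another tissue came near those of the non-visual brain.

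XLOC_007921 led the higher XLOC loci, at 28.8, 28.1 and 46.0 RPKM in the non-visual brain and 0 in each antenna library. With the same floor and the same limit, it was at least 39.1-fold higher (adjusted p = 0.0115, limma), or 20.8-fold without antenna replicate 1. Its level was similar in other neural tissue, with 31.1 to 53.4 RPKM in the optic lobe and 22.7 to 46.8 in the retina. In the fat body it was at 0, 0.183 and 10.9 RPKM, and in the ovary at most at 0.395.

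HSALG011619.1 had the largest difference in the other direction. It was at 2.43, 0 and 0 RPKM in the non-visual brain, where 10 reads were recovered, against 15724, 15704 and 1901 RPKM in antenna replicates 1, 2 and 3 (log2 difference -12.33, SE 0.92, adjusted p = 0.00398, limma). The lowest antenna library was replicate 3, without which the log2 difference was -13.35, and without non-visual brain replicate 1 it was -12.92. The groups lay far apart. In the optic lobe it reached 2.39 to 6.27 RPKM, and at most 1.65 RPKM in any retina, fat body or ovary library.

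XLOC_057823 led the lower XLOC loci, at 1.17, 0 and 0 RPKM in the non-visual brain, against 432, 337 and 185 RPKM in the antenna (log2 difference -7.86, SE 0.58, adjusted p = 0.00398, limma). It was also found outside the nervous system, with 37.2 to 48.3 RPKM in the ovary and 1.91 to 15.99 in the fat body, and in the retina with 18.2 to 173 RPKM. In the optic lobe it was at 0.786 to 1.61 RPKM, close to the non-visual brain.

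**Figure D4:**
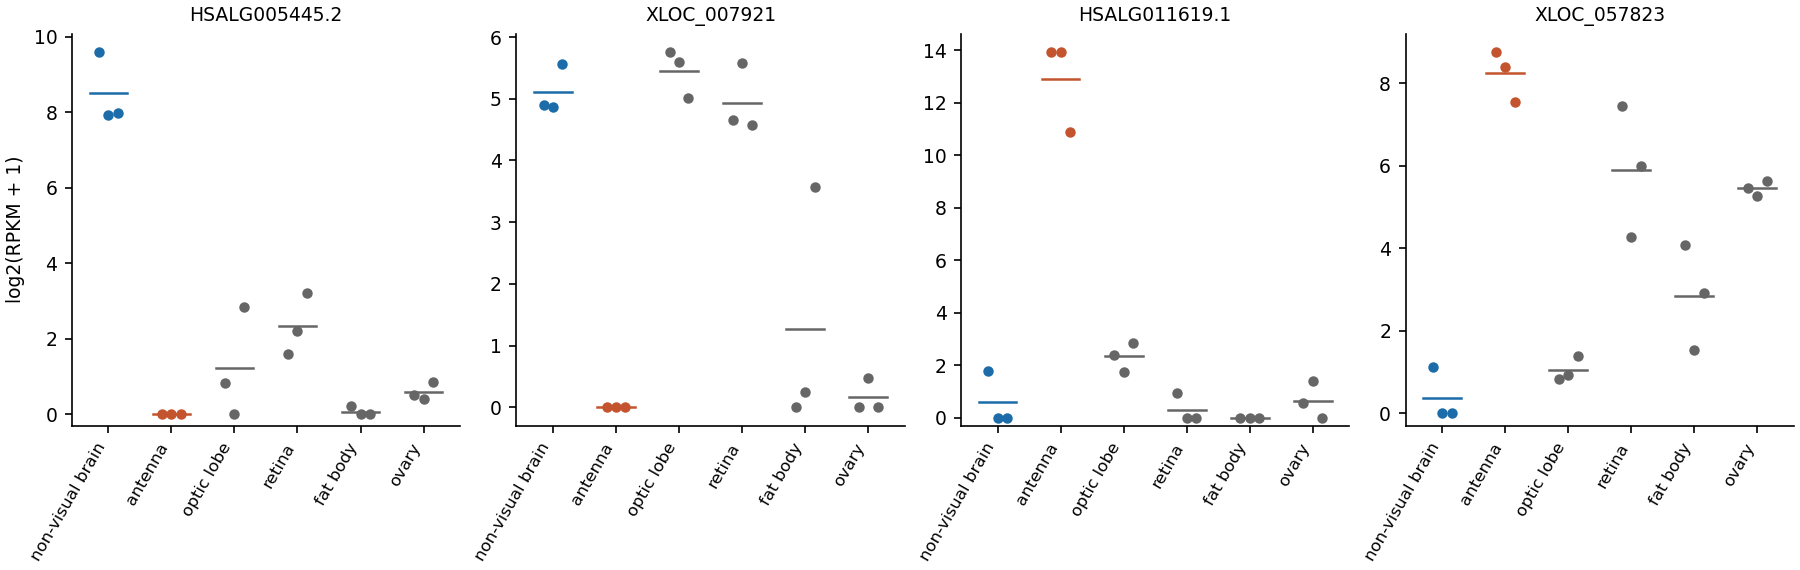
log2(RPKM + 1) of the leading HSALG gene and XLOC locus in each direction, with 1 point per library and a line at the mean of 3, for non-visual brain (blue), antenna (orange) and the tissues outside the comparison (grey). HSALG005445.2 and HSALG011619.1 are high in a single tissue, and XLOC_007921 is as high in optic lobe and retina as in the non-visual brain.

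Among the 4 tissues outside the comparison, the optic lobe had the highest mean for 738 of the 1128 higher genes (65.4%), against 50.0% of all genes tested. The ovary had the highest mean for 322 (28.5%, against 34.1% of all genes), the retina for 36 and the fat body for 32. A mean of 1 RPKM or more in the optic lobe was no trait of the higher genes, since 95.7% of them and 96.3% of all genes reached it. In the retina, the fat body and the ovary these shares were 63.4, 52.7 and 67.8% of the higher genes, against 83.2, 76.6 and 84.3% of all genes. With the compared tissues included, which the calls had used, 415 higher genes were highest in the non-visual brain itself, 408 in the optic lobe and 263 in the gamergate ovary.

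For the lower genes the retina led among the tissues outside the comparison. It had the highest of the 4 means for 71 of the 176 (40.3%, against 6.36% of all genes), the fat body for 44 (25%, against 9.57%), the ovary for 33 (18.8%, against 34.1%) and the optic lobe for 28 (15.9%, against 50.0%). With the compared tissues included, 107 were highest in the antenna, a level for which they had been called, 32 in the retina, 25 in the fat body, 12 in the ovary and none in the optic lobe. Their median level was 11.3 RPKM in the retina, 4.62 in the fat body, 3.10 in the ovary and 1.40 in the optic lobe, where the medians of all genes were 4.24, 3.36, 8.73 and 11.5 RPKM. In 59 of them the retina or the fat body lay above the antenna. In that group antenna replicate 3 was the highest antenna library for 25 genes and the lowest for 23. In the other 117 it was the highest for 24 and the lowest for 69.

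Whether these genes also separate another part of the brain from another sense organ was read in the optic lobe and the retina, which share no library with the comparison. A gene entered that fit by reaching 1 RPKM in at least 3 of those 6 libraries. Of the 176 lower genes 136 did so, and 142 had a mean of 1 RPKM or more in the retina, against 101 in the optic lobe. A gene under 1 RPKM throughout the optic lobe entered only through the retina, which favours a lower call. The shares of lower genes below are thus partly set by this filter, to an extent that was not counted. Of the 136 lower genes tested there, 91 (66.9%) were also lower in the optic lobe than in the retina, against 4.45% of the 9684 genes tested in both comparisons, and 13 (9.56%) were higher, against 48%. They made up 14.8% of all genes lower in the optic lobe, to be read beside the 136 among all 10992 tested there. Genes lower in the optic lobe were 5.58% of the 10992. The median log2 difference of optic lobe minus retina was -2.39 for the 136, and that of all genes 1.17. After quantile normalization of these libraries the share was 72.8%, against 8.63% of all genes. The genes outside the retina list gave 80 of 125 (64%), and the 222 tested among those called lower without antenna replicate 3 gave 108 (48.6%).

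Of the 1016 higher genes tested there, 623 (61.3%) were also higher in the optic lobe than in the retina, against 48% of all genes, and 6 were lower. They made up 12.0% of all genes higher in the optic lobe, to be read beside the 1016 among all 10992 tested there. Genes higher in the optic lobe were 47.3% of the 10992. The median log2 difference was 1.54, which is 0.38 above that of all genes before and 0.29 after quantile normalization, where the share was 21.9% against 11.3%. For the 809 genes with no antenna read it was 57.4%, and for those with an antenna read 70.1%. As deposited, the median gene lay above 0 both in this comparison (1.17) and in that of non-visual brain and antenna (1.04).

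**Figure D5:**
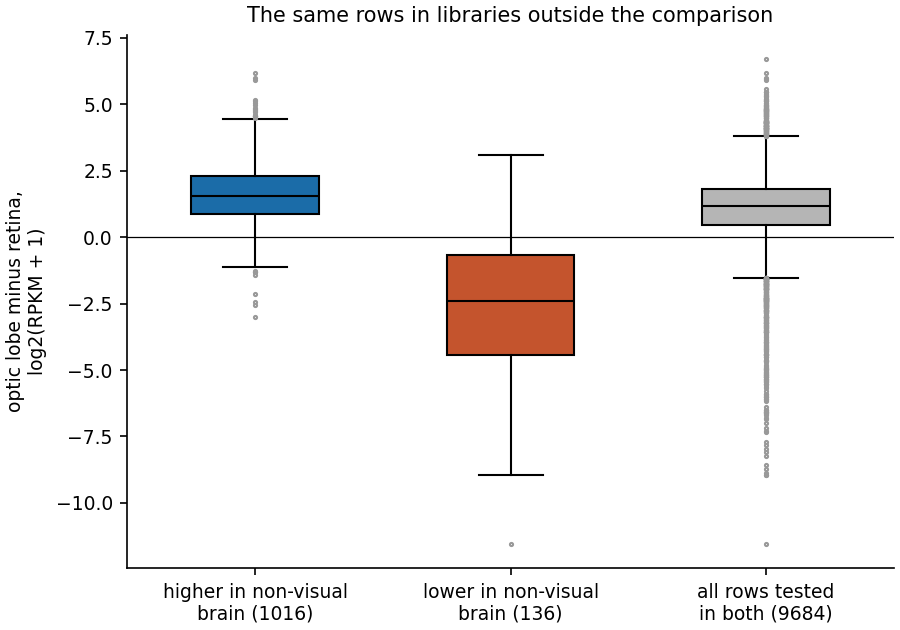
Difference of optic lobe minus retina on the log2(RPKM + 1) scale for the genes higher in the non-visual brain than in the antenna, for those lower, and for all genes tested in both comparisons; boxes span the quartiles, the line is the median and whiskers reach to 1.5 box lengths. The lower genes lie mostly below 0 (median -2.39), and the higher genes above the median of all genes by 0.38.

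The share of XLOC loci called higher was close to that of HSALG genes. Of 281 XLOC loci tested, 29 (10.3%) were higher in the non-visual brain and 13 (4.63%) were lower, beside 11.1% and 1.64% of the 9921 HSALG genes, a difference that was not tested. The sources do not state what the XLOC identifiers stand for. The higher loci had a median of 6.95 RPKM in the non-visual brain and 22 of the 29 had no antenna read. By mean level, 16 of them were highest in the optic lobe, 10 in the non-visual brain and 3 in the ovary. The lower loci had a median of 0.586 RPKM in the non-visual brain and 38.9 RPKM in the antenna, and 8 of the 13 were highest in the antenna. In the optic lobe and retina libraries, 14 of the 23 higher loci tested were higher in the optic lobe (58.2% of all 261 XLOC loci tested there). Of the 11 lower loci, 9 were lower there (5.36% of all 261), with the limit of the filter given above for the lower genes. The number of higher loci was 58 without antenna replicate 3 and 2 after quantile normalization, and that of lower loci was 16 and 14. It was 19 higher loci without non-visual brain replicate 2 and 18 without antenna replicate 2, and 6, 6 and 4 lower loci without non-visual brain replicates 1, 2 and 3.

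Calls were spread unevenly over expression levels. By the mean over the 6 libraries, 711 genes were higher and 21 lower among the 3267 under 5 RPKM, and 261 were higher and 58 lower among the 4730 from 5 to 20 RPKM. From 20 to 100 RPKM, 120 of 1782 genes were higher and 57 lower, and among the 423 genes at 100 RPKM or more 36 were higher and 40 lower. Higher calls thus outnumbered lower ones in each class but the top one. A gene without antenna reads falls into a low class by construction, because the antenna enters its mean at 0. The median coding length of called HSALG genes was 702 bases for the higher and 807 bases for the lower, against 1119 bases for all tested. A read is worth more RPKM in a short gene. Among the genes long enough that 3 reads in the shallowest library were worth 1 RPKM or less, limma called 330 higher and 66 lower. These came from 4555 genes tested, against 1128 and 176 from 10202, and 291 and 56 of them were among the 1128 and 176. In proportion, both counts fell by more than the number of genes tested did. An effect of length on the calls was not tested.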

How the data were processed

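RNA of 6 tissues, with 3 libraries each, was sequenced, and the values the authors deposited are RPKM, with 1 column per library and no pooling. STAR 2.5.0b and DESeq2 are named, with no role, per the submitters' processing notes. The sources used here do not give the genome build, the annotation or the counting.

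Within a library, what 1 read adds to the RPKM depends only on gene length, so coding length, library totals and reads were recovered jointly from the 18 columns for 17315 of the 18589 rows above 0 (93.1%). Of the values in recovered rows, 99.995% came out whole within the rounding of 6 printed digits plus a relative 4.5e-06. Rows were accepted as recovered for having whole values, so this share is no check of the recovery. Recovered totals were 11.3, 15.2 and 15.0 M reads in the non-visual brain and 4.73, 2.37 and 3.04 M in the antenna. Reads of 1 to 10 were even in 57.6 to 67.3% of cases in these libraries, so reads are not independent observations. All 10202 tested rows were recovered. The recovery chose library totals and HSALG lengths so that these lengths were multiples of 3. The 99.97% of HSALG lengths divisible by 3 is thus largely set by that choice and is no check. For XLOC loci, where it was not imposed, the share was 35.1%. HSALG lengths are called coding length here.

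Rows at 1 RPKM or more in at least 3 of the 6 libraries were compared on the log2(RPKM + 1) scale by limma 3.58.1 (R 4.3.3), two-sided, with a mean-variance trend and no block. The optic lobe and the retina were fitted separately in the same way. Only the compared tissues entered each of these fits, since antenna libraries vary more. Reads were thinned by binomial draws. The procedure was tested on simulated data. The named genes are, in each direction, the HSALG gene and the XLOC locus with the largest log2 difference among called genes whose groups did not overlap. The comparison, the lists and the rules were chosen with earlier results of these data known. The pattern lists for gene names were not run, because no identifier carried a name. Same-numbered libraries did not deviate together, so numbers were not taken as pairs.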

Additional observations from a re-analysis of the deposited data

How the results depend on the processing

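Under the 21 alternatives run, no gene called in one direction was called in the other, and the 4 named genes kept their direction and their call wherever they were tested. In all, 19 of the 1128 higher genes and 6 of the 176 lower genes were called under every alternative, some of which leave genes out of the test. The counts of higher and lower genes (1128 and 176) and of higher and lower XLOC loci (29 and 13) moved as follows. The cause of these moves was not tested, and in some alternatives fewer genes or libraries entered. A pseudocount of 5 gave 719 higher genes and 14 higher loci. Testing every gene above 0 in at least 1 library (15488 genes) gave 96 and 45 genes and 2 and 4 loci. Testing genes at 5 RPKM or more gave 434 and 115 genes and 9 higher loci. Long genes, for which 3 reads are worth at most 1 RPKM, gave 330 and 66 genes and 12 and 6 loci. Quantile normalization gave 159 higher genes and 2 higher loci, and trimmed-mean factors gave 19 higher loci. All 18 libraries in the fit gave 2679 and 329 genes and 66 higher loci. With 1 variance per tissue there were 632 and 111 genes and 13 and 7 loci, and with 1 weight per library, whose estimate stopped short of convergence, 1815 higher genes and 46 higher loci. On recovered reads voom gave 109 lower genes. Thinning with antenna replicate 3 left out gave 2498 higher genes and 60 and 8 loci, and 1902 genes read in the non-visual brain only (1212 as deposited). Leaving out 1 library gave 758 to 2819 higher genes, 64 to 280 lower genes, 18 to 58 higher loci and 4 to 16 lower loci, and 2365 genes read in the non-visual brain only. The median log2 difference of all genes (1.04) was 1.73 with a pseudocount of 0.1, 0.52 with a pseudocount of 5 and 0.0465 after quantile normalization. Of the higher genes 21.9% were higher in optic lobe than in retina after quantile normalization (61.3% as deposited). The optic lobe list averaged 4.43% of its source level over the antenna libraries with a fold of 100.

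With the replicate number as a block, limma called 993 genes higher and 165 lower. Deviations from the tissue means correlated at 0.0269, 0.00203 and 0.1 between same-numbered libraries, and non-visual brain replicate 1 correlated best with antenna replicate 2 (0.0336), so nothing shows that the numbers pair the libraries. Depth limits the antenna: 3 reads at 1000 bases are worth up to 1.27 RPKM there.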

Other observations

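HSALG012731.2 was the gene with the highest level in antenna replicate 3 and was chosen after its values were seen. It stood at 154, 118 and 2.84 RPKM in non-visual brain replicates 1, 2 and 3, against 204, 1154 and 25407 RPKM in antenna replicates 1, 2 and 3, so a single library held nearly all of it and 7.92% of the RPKM of that library. It was not called (log2 difference -5.46, adjusted p = 0.127, limma). Outside the comparison its mean in the retina was 55790 RPKM, and it ranged from 157 to 267 RPKM in the fat body.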
